A study of Chlamydomonas reinhardtii with 31 samples.

Results

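Cells of the green alga Chlamydomonas reinhardtii were followed after the removal of nitrogen, and the libraries taken late (24 and 48 h) were set against those taken in the middle of the course (4 and 8 h). The comparison used 8 of the 31 samples of the series, picked by their labels. The comparison itself was chosen with earlier results of these data known. The samples were of CC-4349, which the series calls wild type, and the starchless mutant sta6 (strain number CC-4348). Each strain had 1 library at each of these 4 times, all from the first of 2 library sets. The middle phase thus held 4 libraries and the late phase 4, with 2 of each strain. Both strains had been grown in the light in TAP, an acetate medium, then washed and resuspended in TAP lacking ammonium chloride, so every library of both phases was nitrogen-starved and neither phase was an untreated control. The second library set served as a separate reading. It held CC-4349, sta6 and 3 strains labelled STA6 (STA6-C2, STA6-C4 and STA6-C6), here called the STA6 strains, and its 10 libraries at 4 and 48 h were used. Each strain had 1 library per time and set, and no source used here ties the times of a strain to separate cultures, so the spread behind each test includes the change between the times within a phase and may be partly technical.

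Chlamydomonas answers the loss of nitrogen in stages. Within the first hours the genes for taking up and assimilating alternative nitrogen sources are induced and growth-related transcripts decline, and over the following day or days cells recycle ribosomes and photosynthetic proteins, become able to mate and store carbon as starch and triacylglycerol. Starchless mutants are used to ask how carbon is stored when that route is closed. The genes carry only the identifiers of the deposited table here, since neither the table nor the reference used pairs them with names, and so no function is given to any of them.

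The table listed 17301 genes in FPKM, which scales reads to gene length and sequencing depth, and the test covered the 14795 that reached 1 FPKM in 3 or more of the 8 libraries. Each first-set sample was the mean of a pair of columns, whose Pearson's r across the tested genes ran from 0.937 (CC-4349 at 4 h) to 0.989. Summed FPKM lay between 592000 and 750000 per library, and 4.16% to 8.44% of genes had a listed value of 0. Read totals were not used here, so the depth behind each value is unknown. The gene Cre03.g188250.t1.1, chosen with its values known as the gene that separates the strains, was at 218, 124, 156 and 136 FPKM in CC-4349 at 4, 8, 24 and 48 h and at 0.758, 0.478, 0.910 and 1.20 FPKM in sta6. As it was picked for this difference, it is no independent check of the labels.

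The first question was what the late phase held beyond the middle phase in both strains together. Transcripts changed in both directions: 1069 genes were higher late, which is 7.23% of the genes tested, and 1449 were lower, which is 9.79% (limma on log2(FPKM + 1) with strain as a block, Benjamini-Hochberg adjusted p under 0.05), together 17% of them. The changes were mostly modest. The median log2 difference was 0.75 over the higher genes and -0.72 over the lower ones, and the median over all tested genes was 0.01. A difference above 1 on the log2 scale was reached by 300 of the higher and 341 of the lower genes, and one above 2 by 32 and 19. No gene lay at or under 1 FPKM in every library of one phase while reaching 5 FPKM in every library of the other.

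The size of these counts and the balance between them rested on single libraries. Without 1 library the total of 2518 fell to 1060 (CC-4349 at 4 h), 775 (CC-4349 at 24 h), 28 (CC-4349 at 48 h), 869 (sta6 at 4 h), 1293 (sta6 at 24 h) and 779 (sta6 at 48 h). Without the 8 h library it was 2436 for CC-4349 and 3340 for sta6. The first column of each pair alone gave 1005 genes, the second alone 2180. More genes were lower than higher with all 8 libraries, but fewer were without CC-4349 at 48 h (19 higher and 9 lower), without both 4 h libraries (71 and 40), without both 8 h libraries (2174 and 2011) and with the first column alone (526 and 479). The sign of each called gene held in all 8 fits that left out 1 library, which follows largely from choosing the genes on these libraries.

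The largest rise by the naming rule was that of Cre11.g474600.t1.1. In CC-4349 it was at 0.395 FPKM at 4 h, 0.653 at 8 h, 13.0 at 24 h and 25.2 at 48 h. In sta6 it was at 0.227 FPKM at 4 h, 6.67 at 8 h, 57.8 at 24 h and 181 at 48 h. Every late library lay above every middle library, a separation that 5.07% of tested genes showed, and in both strains 48 h was the highest of all 8 times. Over both strains the difference was 4.37 ± 0.612 (log2, SE; limma adjusted p = 0.0138, or 0.0565 without CC-4349 at 48 h; range over 24 alternatives 0.00325 to 0.167). Before the rise the gene had reached a low at 2 h, of 0.110 FPKM in CC-4349 and 0.123 FPKM in sta6. CC-4349 came to it from 2.67 FPKM at 0 h and 0.287 FPKM at 0.5 h, and sta6 from 2.42 FPKM and then a higher 5.23 FPKM. In the second set it went from 0.0747, 0.120 and 0.0683 FPKM at 4 h to 6.65, 11.0 and 14.0 FPKM at 48 h in the STA6 strains (C2, C4 and C6). Second-set sta6 went from being listed at 0 to 6.14 FPKM, far under first-set sta6 at 48 h, and second-set CC-4349 was at 0.864 and 1.05 FPKM.

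Cre02.g093600.t1.1 followed with a dip and a late rise. It was at 3.40, 12.0, 58.0 and 91.4 FPKM at 4, 8, 24 and 48 h in CC-4349 and at 11.3, 28.4, 121 and 359 FPKM in sta6. The phases did not overlap, and sta6 was above CC-4349 at each of the 4 times. The fitted difference was 3.37 ± 0.459 (log2, SE; limma adjusted p = 0.0138, or 0.0565 without CC-4349 at 48 h; range over 24 alternatives 6.69e-05 to 0.167). At 0 h it had been at 31.5 FPKM in CC-4349 and 90.2 FPKM in sta6, and at 0.5 h at 2.11 and 6.86 FPKM, so a level held at the start was lost by 0.5 h and passed again by 24 h. All 5 second-set strains were higher at 48 h, at 30.6 to 171 FPKM, than at 4 h, at 2.63 to 27.4 FPKM.

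The largest fall by the same rule was that of Cre31.g780700.t1.2. CC-4349 held 57.5 FPKM at 4 h and 49.7 at 8 h, then 1.37 at 24 h and 0.634 at 48 h. In sta6 it held 80.5 and 57.2 FPKM, then 2.70 and 0.356 FPKM. By these means of paired columns the strains lay close in the middle phase, but the columns themselves did not. At 4 h the first and second column were at 20.4 and 94.6 FPKM in CC-4349 and at 126 and 35.3 FPKM in sta6. Which strain was higher at 4 h thus depended on the column. The 12 h libraries, outside the fit, lay between the phases at 16.3 and 18.1 FPKM. Every late library lay below every middle one, as for 7.64% of tested genes. The difference was -4.87 ± 0.295 (log2, SE; limma adjusted p = 0.00132), and it passed in all 24 alternatives, with adjusted p from 9.83e-05 to 0.0373. Second-set sta6 and the STA6 strains went from 71.1 to 117 FPKM at 4 h down to 0.387 to 0.721 FPKM at 48 h, while CC-4349 went from 173 to 27.7 FPKM.

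Cre17.g721500.t1.1 was an abundant transcript that peaked early and left late. It was at 698, 315, 95.7 and 23.7 FPKM at 4, 8, 24 and 48 h in CC-4349 and at 860, 487, 244 and 89.4 FPKM in sta6. Its 0 h levels of 146 and 120 FPKM were passed on the way down by 24 h in CC-4349 and by 48 h in sta6. Late and middle differed by -2.69 ± 0.531 (log2, SE; limma adjusted p = 0.0183; range over 24 alternatives 0.00400 to 0.167). It missed the threshold without CC-4349 at 48 h, sta6 at 4 h or sta6 at 48 h, with adjusted p between 0.0508 and 0.0582. All 5 second-set strains were lower at 48 h, with 21.5 FPKM in CC-4349, 52.8 to 73.2 FPKM in the STA6 strains and 100.03 FPKM in sta6, than at 4 h, with 409 to 548 FPKM.

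**Figure D1:**
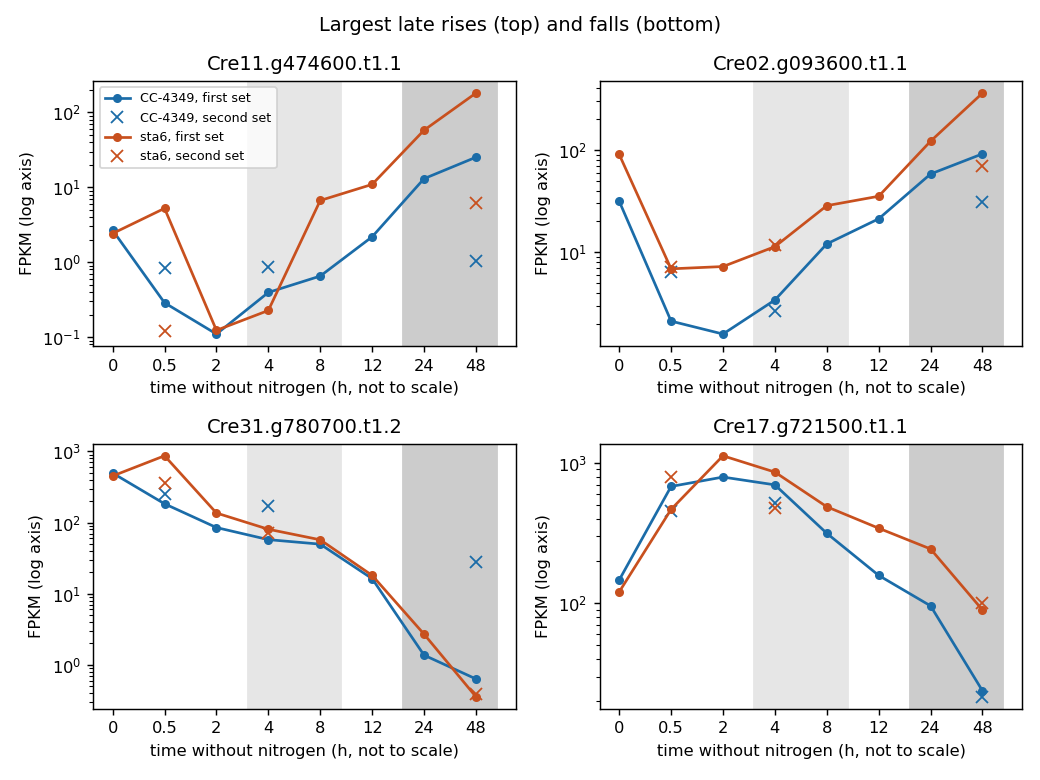
FPKM (log axis) of the 2 largest rises and 2 largest falls at each time without nitrogen; lines join first-set libraries, crosses are second-set libraries of the same strains (a value listed at 0 is not drawn), and light and dark grey mark the middle and late phases. Every late first-set library lies outside the range of the middle ones, and Cre31.g780700.t1.2 falls from a middle-phase range of 49.7 to 80.5 FPKM to a late range of 0.356 to 2.70 FPKM.

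The genes higher late stood at intermediate levels at 12 h. Relative to the mean of the middle libraries of the same strain, their median log2 level in CC-4349 was -0.19 at 4 h, 0.19 at 8 h, 0.47 at 12 h, 0.70 at 24 h and 0.84 at 48 h. In sta6 it was -0.14, 0.14, 0.33, 0.66 and 0.76. The genes lower late mirrored this, at -0.35, -0.70 and -0.82 at 12, 24 and 48 h in CC-4349 and at -0.32, -0.63 and -0.72 in sta6. These levels at 4, 8, 24 and 48 h are the values that chose the genes, whereas the 12 h libraries are not. Among the higher genes that moved by over 0.5 within the strain, the 12 h library lay between the phase means for 818 of 887 in CC-4349 (92.2%) and 734 of 824 in sta6 (89.1%), beside 84.7% and 79.3% of all tested genes that rose that far. The median gene had covered 59.8% of its change by 12 h in CC-4349 and 46.6% in sta6, and among the lower genes 42.8% and 46.9%. Over all tested genes that moved that far the medians were 66.9% and 46.3% for rises and 46.5% and 43.6% for falls. Among the lower genes that moved that far, the 12 h library lay between the phase means for 95.3% in CC-4349 and 80.4% in sta6. The shares over all tested genes that fell that far were 87.8% and 78.9%. An intermediate level at 12 h was thus common to most genes that moved, called or not.

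The 0 h level sorted the changed genes less clearly. Of the higher genes that moved by over 0.5, the 0 h level was on the far side of the middle phase for 55.5% in CC-4349 and 48.7% in sta6. It lay beyond the late level for 23.2% and 28.0%, so for those genes the late rise led back towards the starting level. Of the lower genes, 38.1% in CC-4349 and 30.8% in sta6 had a 0 h level still lower than the late one. The same shares over all tested genes that moved that far were 59.6% and 50.9%, 20.8% and 29.5%, and 43.5% and 41.5%, in the same order. The 0 h libraries lay lower than the middle phase over all tested genes, with a median of -0.68 in CC-4349 and -0.40 in sta6, and these positions use the same phase values as the selection.

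**Figure D2:**
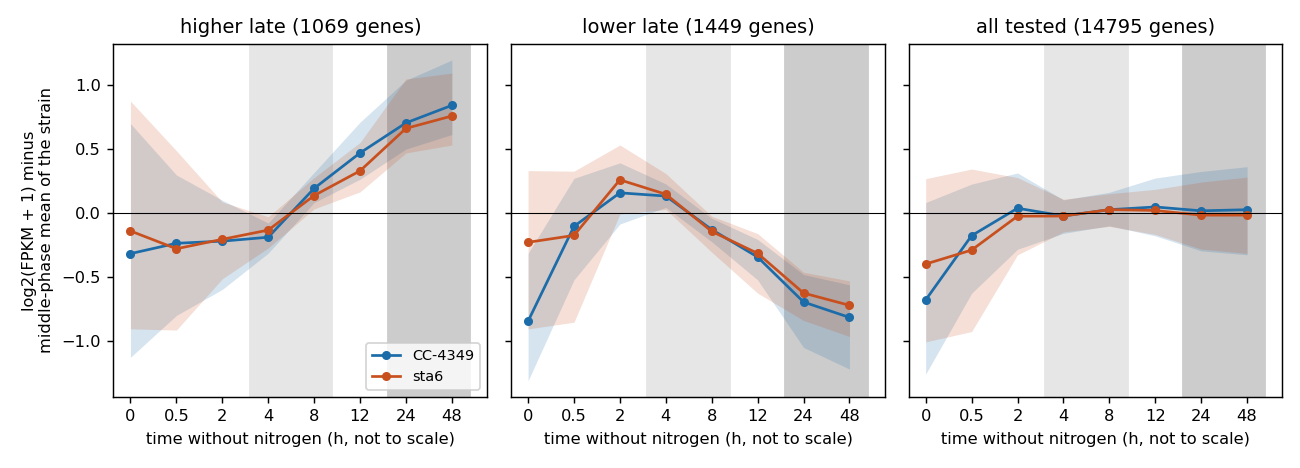
Median log2(FPKM + 1) minus the strain's middle-phase mean at each time, for genes higher late, genes lower late and all tested genes; bands span the quartiles over genes, and light and dark grey mark the middle and late phases. The 12 h medians of 0.47 and 0.33 for the higher genes lie between the phases, and the median of all tested genes stays near 0 from 2 h onward.

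Single steps along the course were larger early than late. In CC-4349, 6426 of 14795 genes differed by over 1 (log2) between 0 and 0.5 h, 2078 between 0.5 and 2 h, 875 between 2 and 4 h, 585 between 4 and 8 h, 134 between 8 and 12 h, 302 between 12 and 24 h and 196 between 24 and 48 h. In sta6 the corresponding numbers were 2693, 5416, 724, 707, 116, 285 and 185, so its largest step was from 0.5 to 2 h. Between 8 and 48 h, across the phases, 1034 genes differed by over 1 in CC-4349 and 838 in sta6, of which 372 and 484 were higher at 48 h. Each number sets 1 library against 1 other and has no replicate check. The step from 4 to 8 h, inside the middle phase, was thus larger in both strains than any later single step.

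The genes that changed also shifted the make-up of the transcript pool. The 1069 higher genes held 4.49% of summed FPKM in CC-4349 at 4 h, 6.02% at 8 h, 10.1% at 24 h and 11.3% at 48 h. In sta6 they held 3.94%, 5.17%, 8.60% and 9.51%. The 1449 lower genes went the other way, from 15.6% and 13.4% to 9.11% and 8.07% in CC-4349 and from 18.4% and 14.5% to 8.01% and 7.75% in sta6. These shares in the first set follow from the choice of the genes. The lower genes had been at 11.6% and 12.9% at 0 h and reached 17.5% and 18.7% at 2 h, in libraries outside the fit. Over the 5 second-set strains the higher genes held 3.87% to 4.99% at 4 h and 7.81% to 9.62% at 48 h, and the lower genes 12.4% to 18.8% and then 6.14% to 7.43%. Neither range at 48 h overlapped its range at 4 h, and second-set CC-4349 moved least in both.

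**Figure D3:**
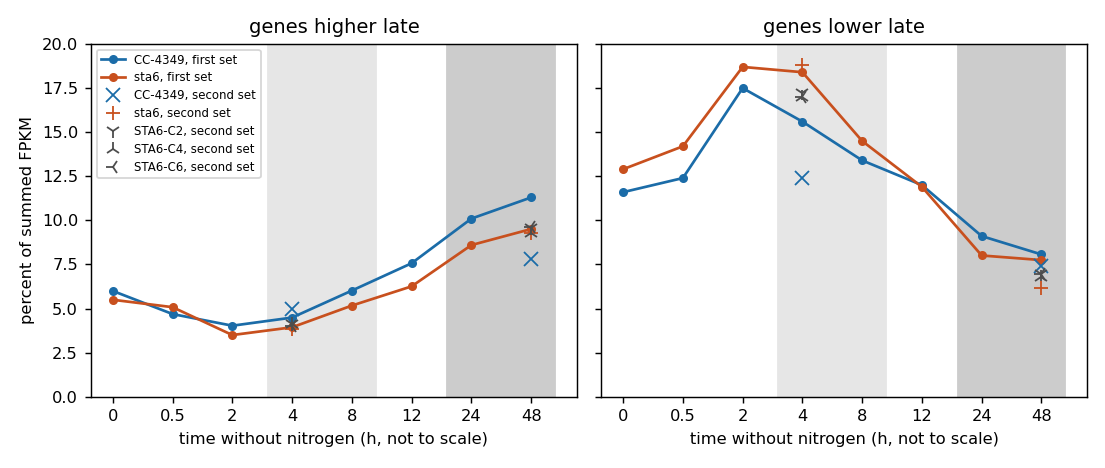
Percent of summed FPKM held by the genes higher late and the genes lower late at each time; lines are first-set libraries, other symbols second-set libraries, and light and dark grey mark the middle and late phases. The higher genes climb from 4.03% and 3.50% at 2 h to 11.3% and 9.51% at 48 h, and the second-set values at 48 h lie on the same side of those at 4 h in all 5 strains.

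Genes called lower late were more frequent among abundant transcripts, while those called higher were not. With genes divided into 3 equal bins by mean FPKM over the 8 libraries, 6.95%, 7.46% and 7.26% were higher late from the lowest to the highest bin. For lower genes the shares were 7.81%, 6.98% and 14.6%. By the chromosome number within the identifier, the share of lower genes ran from 5.62% on chromosome 4 to 12.8% on chromosome 9. Among genes that neighbour each other in the order of the Chlamydomonas_reinhardtii_v5.5 assembly, the neighbour of a higher gene was itself higher in 11.2% of cases, beside 7.21% over all such neighbours, and that of a lower gene was lower in 13.3%, beside 10.6%. No source used here says whether the counting used strand, so reads of overlapping neighbours cannot be told apart.

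The next question was whether each strain showed the late change by itself. With 1 mean per strain and phase, limma called 256 genes higher (1.73% of those tested) and 518 lower (3.50%) in CC-4349, 5.23% together, and 161 higher (1.09%) and 147 lower (0.994%) in sta6, 2.08% together. Of the genes named over both strains, only Cre31.g780700.t1.2 passed in each strain (limma adjusted p = 0.0271 in CC-4349 and 0.0208 in sta6). Cre11.g474600.t1.1 missed the threshold in CC-4349 (limma adjusted p = 0.0520). In sta6 Cre02.g093600.t1.1 and Cre17.g721500.t1.1 missed it (limma adjusted p = 0.0524 and 0.139). Because 2 libraries stood for each mean, the counts of genes called per strain moved widely. For CC-4349 the total of 774 became 1, 2609, 2 and 0 without its own 4, 8, 24 and 48 h library, and 1278, 2 and 2 without sta6 at 8, 24 or 48 h. For sta6 the total of 308 became 0, 1370, 14 and 0 without its own 4, 8, 24 and 48 h library, and 468, 468, 40 and 40 without the CC-4349 library at those times.

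The genes called in one strain were then read in the other. The phase means of the strains share no library, but both came from 1 fit with a shared estimate of the spread, so the libraries of each strain also bore on which genes were called in the other. The reading was made on the full lists, with no library left out. Of the 256 genes higher in CC-4349, 230 (89.8%) were also higher on average in sta6, beside 47.9% of all tested genes. In 204 of them (79.7%) both late sta6 libraries lay above both middle ones, beside 26.7%. Of the 518 genes lower in CC-4349, 473 (91.3%) were lower in sta6, beside 52.1%, and 419 (80.9%) did not overlap between the phases there, beside 30.5%. Read the other way, 129 of 161 genes higher in sta6 (80.1%, beside 51.4%) and 131 of 147 lower ones (89.1%, beside 48.4%) had the same sign in CC-4349. Of these lists 111 (68.9%, beside 34.2%) and 97 (66.0%, beside 32.0%) did not overlap between the phases there. The differences were smaller in the strain that had not made the call. For genes called higher in CC-4349 the medians were 1.15 in CC-4349 and 0.70 in sta6. For genes called higher in sta6 they were 1.38 in sta6 and 0.64 in CC-4349. Choosing genes for passing in 1 strain favours large differences there, so this shrinkage largely follows from the choice. The genes called over both strains had to move alike: both late libraries lay outside both middle ones within each strain for 1050 higher and 1397 lower genes, beside 15.4% and 17.2% of all tested genes, a reading that uses the values that chose them. Genes passing in each strain numbered 42 higher and 16 lower, which is 16.4% and 3.09% of the CC-4349 lists and 26.1% and 10.9% of the sta6 lists. Of all tested genes, 1.09% were called higher and 0.994% lower in sta6, and 1.73% and 3.50% in CC-4349. Across all 14795 genes, Pearson's r between the strains' differences was 0.539, a description over genes that share libraries and depth.

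A pair of neighbouring genes led the rises in CC-4349. Cre10.g433200.t1.1 was at 0.531 and 1.09 FPKM at 4 and 8 h and at 40.2 and 16.4 FPKM at 24 and 48 h, and Cre10.g433250.t1.1 at 1.53 and 2.15 and then 42.2 and 27.5 FPKM. In sta6 they were at 1.53, 5.43, 7.78 and 7.22 FPKM and at 2.24, 5.36, 8.02 and 8.62 FPKM at the same 4 times. The late libraries of sta6 thus also lay above its middle ones, though by less. In CC-4349 the log2 fold changes were 3.90 ± 0.503 and 3.64 ± 0.334 (SE; limma adjusted p = 0.0271 for each), and in sta6 1.08 and 1.04 (limma adjusted p = 0.238 and 0.119). The difference between the strains did not pass (limma adjusted p = 0.3004 and 0.211). Both genes were listed at 0 in CC-4349 at 0 and 0.5 h. At 48 h of the second set they were at 24.4 and 34.3 FPKM in CC-4349, at 6.94 and 5.35 FPKM in sta6 and at 6.24 to 15.5 FPKM in the STA6 strains. CC-4349 was thus the highest at 48 h, but it was the highest at 4 h as well. It was then at 2.59 and 3.57 FPKM, with the other strains at 0.182 to 1.15 FPKM. On the log2(FPKM + 1) scale the rise from 4 to 48 h was smaller in sta6 than in CC-4349 for both genes. In STA6-C4 it was larger than in CC-4349 for both. For Cre10.g433250.t1.1 the order of sta6 and CC-4349 depended on the scale. Its sta6 level at 4 h was only 0.182 FPKM, and as a plain ratio of FPKM its rise was larger in sta6.

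The largest falls in CC-4349 by that rule were of abundant transcripts. Cre23.g766250.t1.1 was at 3991 FPKM at 4 h, 236 at 8 h, 3.33 at 24 h and 3.11 at 48 h in CC-4349. In sta6 it was at 2587, 725, 853 and 585 FPKM. At 0 h the strains had been at 11259 and 11798 FPKM and at 2 h at 4276 and 4530 FPKM. By these means the strains lay close early. CC-4349 was the lower one at 8 h and far the lower one at 24 and 48 h. At 8 h the paired columns were at 274 and 197 FPKM in CC-4349 and at 385 and 1064 FPKM in sta6. Cre32.g781300.t1.1 took a like course from 4 h on, at 1256, 47.0, 0.345 and 0.911 FPKM in CC-4349 and at 1233, 405, 324 and 221 FPKM in sta6. Its strains lay further apart before that, at 3471 and 6215 FPKM at 0 h and 1334 and 2460 FPKM at 2 h, with sta6 the higher. Log2 fold changes in CC-4349 were -7.85 ± 1.17 and -7.26 ± 1.31 (SE; limma adjusted p = 0.0290 and 0.0335), and in sta6 -0.95 and -1.40 (limma adjusted p = 0.653 and 0.549). The difference between the strains was 6.89 and 5.86 but did not pass (limma adjusted p = 0.286 and 0.364).

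The second set gave the same order of the strains at 48 h for these abundant transcripts. Cre23.g766250.t1.1 was at 11.1 FPKM in CC-4349, 279, 313 and 369 FPKM in the STA6 strains, and 1203 FPKM in sta6. Cre32.g781300.t1.1 was at 3.82 FPKM in CC-4349, 56.3, 124 and 118 FPKM in the STA6 strains, and 424 FPKM in sta6. At 4 h the order was not the same, since sta6 was the lowest of the 5 strains for both genes, at 2461 and 1123 FPKM. Each of these 5 strains had a single library per time. Over the 4 leading genes of CC-4349 the calls missed the threshold without CC-4349 at 4, 24 or 48 h, or without sta6 at 24 or 48 h, with adjusted p between 0.0571 and 0.206. Over all alternatives they ran from 0.000859 to 0.359.

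In sta6 the leading genes were again Cre11.g474600.t1.1 and Cre31.g780700.t1.2, with log2 fold changes of 5.07 ± 0.845 and -4.94 ± 0.440 (SE; limma adjusted p = 0.0403 and 0.0208). Another rise was that of Cre02.g080600.t1.1, at 0.245 and 0.147 FPKM at 4 and 8 h and 10.9 and 41.9 FPKM at 24 and 48 h in sta6. In CC-4349 it was at 4.74, 6.20, 11.1 and 25.8 FPKM, so the strains were closer late than in the middle phase. It rose by 4.24 ± 0.582 in sta6 (log2, SE; limma adjusted p = 0.0310) and its difference was 1.48 in CC-4349 (limma adjusted p = 0.138), while the strain difference of 2.76 did not pass (limma adjusted p = 0.352). At 48 h of the second set it was at 61.5 FPKM in CC-4349 and 15.6 in sta6. The STA6 strains C2, C4 and C6 were then at 15.9, 0.765 and 12.2 FPKM, with STA6-C4 the lowest. At 4 h of that set it had been at 2.05 FPKM in CC-4349, 1.15 in sta6, and 0.145, 0.233 and 0.530 in the STA6 strains. Between these single libraries the rise was larger in CC-4349 than in sta6, the reverse of the first set.

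The other fall in sta6, Cre12.g546550.t1.1, concerned a transcript that CC-4349 had already lost. It was at 326, 159, 24.6 and 6.27 FPKM at 4, 8, 24 and 48 h in sta6 and at 3.31, 0.596, 0.579 and 2.62 FPKM in CC-4349, after 2429 and 321 FPKM at 0 h. It fell in sta6, by a difference of -4.07 ± 0.733 (log2, SE; limma adjusted p = 0.0463) and was at -0.13 in CC-4349 (limma adjusted p = 0.915), and the strain difference of -3.93 did not pass (limma adjusted p = 0.308). Second-set sta6 did not show the slow decline: it was at 147 FPKM at 0.5 h, 0.533 FPKM at 4 h and listed at 0 at 48 h. Over the 4 genes named in sta6 the calls missed the threshold without sta6 at 4 or 48 h, and for Cre11.g474600.t1.1 and Cre12.g546550.t1.1 also without sta6 at 24 h or CC-4349 at 24 or 48 h, with adjusted p between 0.0675 and 0.250. Over all alternatives they ran from 0.0059 to 0.433.

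**Figure D4:**
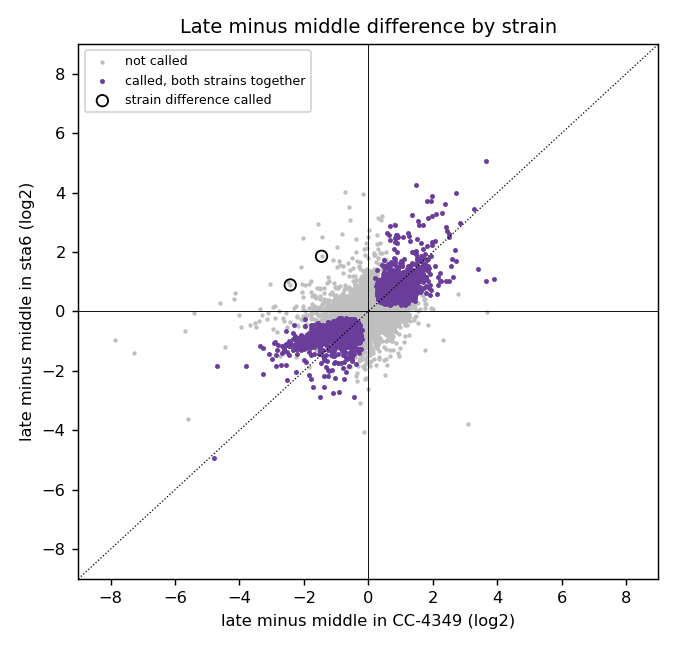
Late minus middle difference on the log2(FPKM + 1) scale in CC-4349 (x) and sta6 (y), 1 point per tested gene; purple points were called in both strains together and circles mark genes whose difference between the strains was called. The differences of the strains are moderately correlated (Pearson's r = 0.539 over all tested genes). The purple genes moved in the same direction in both strains, which their choice over both strains largely fixes. The 2 circled genes lie lower in CC-4349 and higher in sta6.

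Tested directly, few genes were called as differing between the strains in their late change. Each mean rested on 2 libraries, so a gene that was not called is not shown to move alike in both strains. Limma called 2 genes as moving higher in sta6 than in CC-4349 and 0 as moving lower, 0.0135% of the 14795 tested, while 1709 genes (11.6%) had an unadjusted p under 0.05. Both called genes were at low levels, with means over the 8 libraries of 4.12 FPKM (Cre12.g555800.t1.1) and 3.13 FPKM (Cre10.g447650.t1.1). The median was 8.79 FPKM in the middle bin of tested genes by level. Cre12.g555800.t1.1 was at 4.30, 3.77, 0.889 and 0.778 FPKM at 4, 8, 24 and 48 h in CC-4349 and at 1.45, 2.52, 8.98 and 10.3 FPKM in sta6. CC-4349 fell where sta6 rose, and neither strain's phases overlapped. Its difference was 3.31 ± 0.284 (SE; limma adjusted p = 0.0325). The second set gave the same contrast: CC-4349 went from 6.78 to 0.986 FPKM between 4 and 48 h and sta6 from 4.43 to 7.41 FPKM, a difference of 2.602 from single libraries. The STA6 strains went with CC-4349, at 6.52 to 7.38 FPKM at 4 h and 2.50 to 3.83 FPKM at 48 h.

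The other gene, Cre10.g447650.t1.1, did not show that contrast there. In the first set it was at 4.75 and 4.02 FPKM and then listed at 0 at both late times in CC-4349, and at 2.82, 2.29, 5.96 and 5.198 FPKM in sta6 (difference 3.31 ± 0.229, SE; limma adjusted p = 0.0135). In second-set sta6 it fell from 13.1 to 1.69 FPKM, as it did in CC-4349 from 5.05 to 1.01 FPKM. Within the first set the sta6 library at 12 h, at 0.601 FPKM, also lay below both phases. Without any 1 library other than the 8 h ones its adjusted p was between 0.0544 and 0.169, and that of Cre12.g555800.t1.1 between 0.0506 and 0.247 without any 1 library other than sta6 at 8 h. Over all alternatives the adjusted p of both genes ran from 0.00258 to 0.772.

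Finally, the late change was read in libraries that had no part in finding it. There, 48 h was compared with 4 h over 5 strains with strain as a block, and limma called 3248 genes higher (22.1% of 14669 tested) and 3945 lower (26.9%), 49% together. With quantile normalization the split was 4339 and 3480. Without STA6-C2 the total of 7193 fell to 4738 and without STA6-C6 to 4768. Of the 1052 first-set higher genes tested there, 816 (77.6%) were called higher and 11 (1.05%) lower, beside 22.2% and 26.6% of all genes tested in both sets. Of the 1443 lower genes, 1248 (86.5%) were called lower and 5 (0.347%) higher, beside 26.6% and 22.2%. Median second-set differences were 0.86 for the higher and -1.004 for the lower genes, against 0.00442 over all.

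Each strain of the second set showed this separately. The share of higher genes with a higher value at 48 h than at 4 h was 81.3% in CC-4349, 92.3% in sta6, and 94.8%, 92.3% and 94.4% in the STA6 strains C2, C4 and C6. All tested genes gave 56.1%, 36.5%, 52.1%, 47.0% and 51.9%. For the lower genes the shares falling were 87.4%, 98.1%, 95.6%, 96.9% and 96.9%, beside 43.5%, 63.1%, 47.6%, 52.7% and 47.8%. Second-set CC-4349 gave the lowest share in both directions, and its median differences over the 2 groups, 0.60 and -0.62, were the smallest of the 5 strains. In first-set CC-4349 the medians between the same times had been 1.03 and -0.96, in libraries that helped to choose these genes. In sta6 they were 0.888 and -0.882 in the first set and 0.765 and -1.204 in the second. The lower genes of sta6 thus fell further in the second set. In all 5 strains at once, 763 of 1069 higher genes (71.4%, beside 22.5%) rose and 1213 of 1449 lower genes (83.7%, beside 26.4%) fell.

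**Figure D5:**
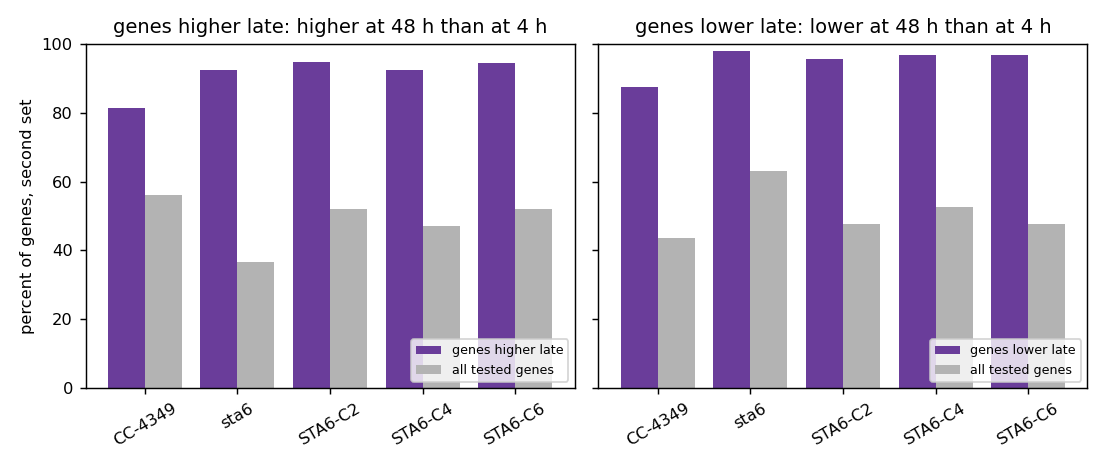
Percent of genes with a higher value at 48 h than at 4 h (left, genes higher late) or a lower one (right, genes lower late) in each strain of the second set, beside the same percent over all tested genes; each strain has 1 library per time. Every strain lies above its background, from 81.3% beside 56.1% in CC-4349 to 98.1% beside 63.1% in sta6.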

How the data were processed

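Samples were grouped by the strain, time and set code in their titles. The authors' deposited table was taken as FPKM from its values, since its header gives none, and it could equally hold RPKM. The submitters' processing notes name Bowtie. Its version, the genome build, the annotation and the counter are not given. The 16 first-set samples had paired columns, averaged per sample; no source used here says whether a pair is a repeat run or a separate culture. Tests used limma 3.58.1 in R 4.3.3 (trend and robust) on log2(FPKM + 1), a scale that understates changes of low genes, for genes reaching 1 FPKM in 3 or more fitted libraries. Strain was a block (5 residual degrees of freedom); strain-by-phase means and the second set left 4 each. Fits were tested on simulated data. The strains pair the phases because each strain is in both. Python 3.11.15, numpy 2.4.6, pandas 2.3.3 and matplotlib 3.10.9 did the rest. Named genes were to be those past the threshold, at or above the median level, with phases that do not overlap, largest by fold change; for the strain difference the threshold alone applied. No symbol or product was found for any identifier, so functional lists were not used, 2 rises and 2 falls were named per comparison (2 rises and 0 falls passed for the strain difference), and no sequence is shown. Of 17301 identifiers 12666 matched a locus tag of the Chlamydomonas_reinhardtii_v5.5 table, used for gene order. The comparison and its rules were chosen with earlier results of these data known.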

Additional observations from a re-analysis of the deposited data

Results flagged for a closer look

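In Cre11.g474600.t1.1 the sta6 library at 8 h, at 6.67 FPKM, stood far above the other 3 middle libraries. It was the 1 such case in 24 checks of 12 named genes in 2 phases of 4 libraries, and chance flags about 1 in 20. The late change differed between the strains for Cre10.g447650.t1.1, by 3.31 (log2, sta6 minus CC-4349), and for Cre12.g555800.t1.1, also by 3.31, both by limma's test of the difference.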

How the results depend on the processing

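Counts are given for genes higher, genes lower, CC-4349 alone, sta6 alone and the strain difference, in that order, against 1069, 1449, 774, 308 and 2. Leaving out 1 library gave 19 to 1535, 9 to 1805, 0 to 2609, 0 to 1370 and 0 to 6. Without the 4 h libraries they were 71, 40, 321, 0 and 0; without 8 h 2174, 2011, 5023, 2997 and 115; without 24 h 8, 4, 4, 2 and 0; without 48 h 0, 1, 2, 0 and 1. Where a phase or strain kept 1 library, its spread was assumed like that of the others. Over the 15 counts of 0 by limma, between 537 and 3771 genes had an unadjusted p under 0.05. The first column of each pair gave 526, 479, 17, 59 and 0, and the second gave 11 for the strain difference. Quantile normalization gave 200 for sta6 and 0 for the difference, and no filter gave 168 for sta6. With no replicate block, that is without strain in the model, 70 were higher and 137 lower. All 16 first-set libraries gave 519 and 592; 12 h counted as late gave 924 lower, and as middle 623 higher. The cause was not tested. Leaving out a strain of the second set gave 4738 to 8450 against 7193. Named genes missed the threshold in 104 of 296 fits; none changed sign, which their choice by size on these libraries largely fixes. Pseudocounts of 0.1 and 5, equal medians and limma without trend and robust fitting changed none of the 6 counts by over 1.5 times. Depth is unknown, so what it limits could not be measured.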
